A study of Homo sapiens with 6 samples.

Results

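The genes described here are 54 regulators of the cell division cycle, namely the cyclins, the cyclin-dependent kinases (CDKs) and their inhibitors, the retinoblastoma family with its E2F and DP partners, and the phosphatases, kinases and transcription factors that act with them. They are named genes, picked with earlier results of these data known and by a rule that uses no measured value, and CDKN1A and CCNG1 were kept out as genes of the p53 pathway. Of the 54 genes, 52 have a row in the count table of 15585 genes, and 51 of these had enough reads to be tested among 11844 genes. CCND2 and E2F2 were not analysed here, and CDK7 was below the filter on low counts. The libraries are bulk RNA-seq of U2OS, an osteosarcoma cell line, 48 h after transfection either with a control siRNA (siCTR, 3 libraries) or with an siRNA against LSD1 (siLSD1, 3 libraries). LSD1 is a histone demethylase encoded by KDM1A, and the study used the comparison to ask whether its loss alters the transcription of genes that act in DNA replication. More than 1 LSD1 siRNA was used in the study, and which of them went into these libraries is not given in the sources used here. Nothing states that the replicates came from separate cultures, so the p-values measure the spread between these libraries, which may be technical.

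Each library held 12513511 to 13561344 counted reads. KDM1A (chr1:23019443-23083689, GRCh38) was counted with 6140, 6493 and 6573 reads in siCTR replicates 1 to 3, against 1110, 1198 and 1246 in siLSD1 replicates 1 to 3. Its level after knockdown was 18.5% of the control level, with a log2 fold change of -2.44 (SE 0.11, edgeR adjusted p = 2.27e-07). The vimentin gene VIM and the alkaline phosphatase gene ALPL, both used as markers of mesenchymal and bone-forming cells, had at least 9487 and 4162 reads in every library. Of the 12 markers of that kind, 10 were in the table, and SPARC, RUNX2 and SP7, which define bone-forming cells, had at most 4 reads in any library. The keratin genes KRT8 and KRT18, markers of simple epithelia, had 21772 to 29212 and 10914 to 16655 reads, whereas the epithelial markers KRT19, EPCAM and CDH1 had 0 to 4, 28 to 41 and 66 to 154 reads. The summed level of the 10 mesenchymal and bone markers was 596 to 630.3 FPKM in siCTR and 613 to 635 FPKM in siLSD1, and that of 5 epithelial markers, nearly all of it from KRT8 and KRT18, was 950 to 1129 FPKM in siCTR and 754 to 947 FPKM in siLSD1. The part of these markers in the results below was not tested. The inhibitor gene CDKN2A, which is generally described as silenced in U2OS, had between 1841 and 2883 reads in the 6 libraries, so U2OS is used here as the label gives it.

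A cyclin binds a CDK and switches on its kinase activity. D-type cyclins with CDK4 and CDK6, and then E-type cyclins with CDK2, phosphorylate the retinoblastoma protein RB and its relatives p107 and p130, the pocket proteins, which otherwise hold E2F transcription factors inactive. Free E2F, paired with a DP protein, transcribes the genes of S phase. Later in the cycle, the MuvB complex with B-MYB and FOXM1 transcribes the genes of mitosis, where cyclin B and CDK1 act. Inhibitors of the INK4 family block CDK4 and CDK6, and those of the Cip/Kip family bind a wider range of cyclin-CDK complexes. RB function is often lost in osteosarcoma.

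Promoters were read to show the sequence upstream of RBL1, TFDP1, CDKN1B and CCNE1. The other members with an unadjusted p under 0.05, CCND1, CCNE2, E2F5 and CDKN1C, matched no window. The windows are from RefSeq (GRCh38.p14), 250 bases before to 50 bases after a start, printed 5′ to 3′ on the strand of the gene, and 45 of the 54 members matched 69 windows. Capitals mark words searched on both strands, which are the E2F words TTCCCGC or TTGGCGC or TTCGCGC or TTGCCGC in RBL1 and TFDP1, and the word CCAAT in CDKN1B. RBL1 is the only member that was higher at an unadjusted p under 0.05, TFDP1 and CDKN1B were lower at that threshold, and CCNE1, a lower member too, holds none of these words in its window.
RBL1 (chr20:37095948-37096247, minus strand): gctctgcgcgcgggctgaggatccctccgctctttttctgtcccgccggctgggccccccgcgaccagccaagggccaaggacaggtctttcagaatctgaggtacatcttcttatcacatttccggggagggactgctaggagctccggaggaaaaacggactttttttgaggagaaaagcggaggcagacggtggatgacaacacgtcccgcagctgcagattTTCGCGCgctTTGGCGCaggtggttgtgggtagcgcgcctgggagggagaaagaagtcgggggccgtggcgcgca
TFDP1 (chr13:113584503-113584802, plus strand): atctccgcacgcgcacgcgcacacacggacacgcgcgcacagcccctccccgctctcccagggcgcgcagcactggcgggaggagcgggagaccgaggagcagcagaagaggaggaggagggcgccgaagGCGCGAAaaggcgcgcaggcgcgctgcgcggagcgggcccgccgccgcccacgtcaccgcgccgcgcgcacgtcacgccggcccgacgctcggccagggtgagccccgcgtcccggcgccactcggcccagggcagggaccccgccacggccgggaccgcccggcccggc
CDKN1B (chr12:12717118-12717417, plus strand): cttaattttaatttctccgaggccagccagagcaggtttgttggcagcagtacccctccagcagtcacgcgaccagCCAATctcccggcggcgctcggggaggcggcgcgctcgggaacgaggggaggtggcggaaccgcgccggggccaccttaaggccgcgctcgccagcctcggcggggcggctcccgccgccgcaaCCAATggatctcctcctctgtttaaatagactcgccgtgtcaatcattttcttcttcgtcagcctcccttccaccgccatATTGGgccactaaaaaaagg
CCNE1 (chr19:29811741-29812040, plus strand): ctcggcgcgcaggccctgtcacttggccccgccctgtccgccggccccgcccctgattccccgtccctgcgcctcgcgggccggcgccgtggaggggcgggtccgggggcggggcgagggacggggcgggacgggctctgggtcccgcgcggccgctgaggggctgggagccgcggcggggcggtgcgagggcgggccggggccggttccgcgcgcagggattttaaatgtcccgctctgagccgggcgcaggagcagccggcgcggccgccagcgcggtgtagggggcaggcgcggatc

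The E2F words of RBL1 begin 25 and 15 bases before the start, and that of TFDP1, on the reverse strand, 120 bases before it. An E2F word was present in 24.6% of the 69 windows of members and in 13.0% of all 35116 windows of the same length. TTTGAA, the word of the cell cycle homology region that MuvB binds, was present in 21.7% of members' windows and in 15.2% of all windows. CCAAT, the word of the factor NF-Y, was present in 39.1% and 34.6%. A match to a word is a description of the sequence and not a measured binding site.

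Of the 51 members tested, CCND1 fell, and it was the only one past an adjusted p of 0.05 in the quasi-likelihood test of edgeR, adjusted over all genes by the Benjamini-Hochberg method. The background for this count is 0.371% of all genes lower and 1.07% higher. At an unadjusted p under 0.05, 7 members were lower (13.7%, against 6.55% of all genes) and 1 was higher (1.96%, against 7.48% of all genes). The lower members are CCND1, CCNE1, CCNE2, TFDP1, E2F5, CDKN1B and CDKN1C, and the higher member is RBL1. CDKN1C passed the filter on low counts through the siCTR libraries, in which it is higher, and with a filter of at least 1 CPM in 3 libraries it was not tested and 6 of 50 members were lower. The siCTR and siLSD1 libraries did not overlap in 10 members that were lower (19.6%, against 9.97% of all genes) and in 6 that were higher (11.8%, against 11.4% of all genes). The median log2 fold change was -0.05 over the members and -0.01 over all genes. It was above 0 in 19 members and below 0 in 32, beside 5598 and 6246 of the 11844 genes. The 95% confidence interval lay within 0.5 of 0 on the log2 scale for 37 of the 51 members, beside 6132 of the 11844 genes.

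**Figure D1:**
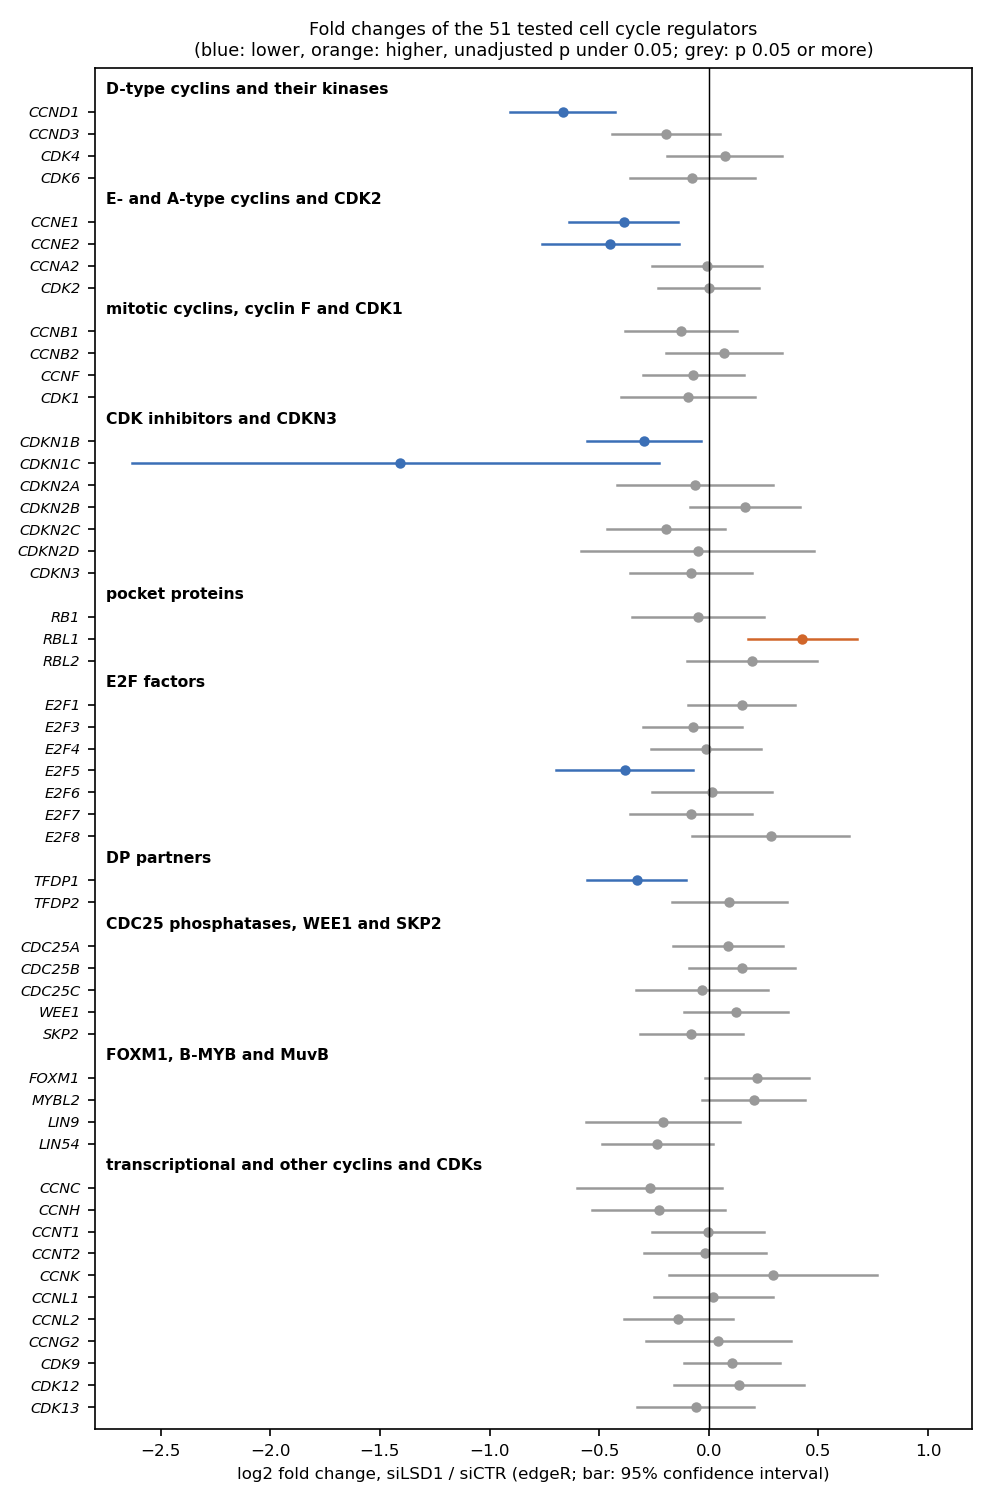
Log2 fold change (siLSD1 over siCTR, horizontal axis) of the 51 tested members by role, with the 95% confidence interval of edgeR as a bar. 7 intervals lie wholly below 0 (blue), that of RBL1 lies wholly above 0 (orange), and the other 43 (grey) cross 0.

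CCND1 encodes cyclin D1, which carries growth signals to CDK4 and CDK6 in G1. Its level, in CPM (reads scaled to a common library total, with TMM factors), was 200.3, 172 and 201 in siCTR replicates 1 to 3 and 126, 119.96 and 116 in siLSD1 replicates 1 to 3. Every siLSD1 library was below every siCTR library, and the mean went from 191 ± 16.7 to 120.4 ± 5.16 CPM (SD, n = 3), which is 63.0% of the control level. The log2 fold change of CCND1 (chr11:69641156-69654474) was -0.67 (SE 0.11, edgeR adjusted p = 0.0113). With 1 library left out it ranged from -0.73 to -0.63, and the edgeR adjusted p was 0.0618 without siCTR replicate 3 and 0.0902 without siLSD1 replicate 2. The other D-type cyclin in the table, CCND3, had 174, 178 and 163 CPM in siCTR and 166, 149.6 and 134 CPM in siLSD1, so the groups overlapped, with a log2 fold change of -0.20 (95% confidence interval -0.44 to 0.05). CCND3 was at -0.28, past an unadjusted p of 0.05, without siLSD1 replicate 1 and at -0.12 without siLSD1 replicate 3. In bulk libraries, less RNA per cell and fewer cells that make it cannot be told apart. The difference between the changes of CCND1 and CCND3 was not tested. The kinase partner CDK4 had 121, 125 and 119.9 CPM in siCTR and 147, 127 and 111 CPM in siLSD1. CDK6 had 324, 249 and 339 CPM in siCTR and 264, 291 and 311 CPM in siLSD1. Both kinases overlapped between the groups, with log2 fold changes of 0.07 (interval -0.19 to 0.33) and -0.07 (interval -0.36 to 0.21).

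The genes of both E-type cyclins, which activate CDK2 at the entry into S phase, were lower after knockdown at the unadjusted threshold, and the libraries of the groups did not overlap. CCNE1 (chr19:29811991-29824312) had 50.6, 52.1 and 47.9 CPM in siCTR and 39.2, 39.4 and 36.4 CPM in siLSD1, a log2 fold change of -0.39 (SE 0.11, edgeR adjusted p = 0.134). CCNE2 (chr8:94879770-94896678) had 21.6, 22.5 and 25.7 CPM in siCTR and 16.8, 15.1 and 19.2 CPM in siLSD1, a log2 fold change of -0.45 (SE 0.14, edgeR adjusted p = 0.172). Neither passed the adjusted threshold. Their shared kinase CDK2 had 195, 208 and 195 CPM in siCTR and 209, 206 and 182 CPM in siLSD1, with a log2 fold change of -0.0012 (interval -0.23 to 0.23). CCNA2, the gene of cyclin A2, which takes over CDK2 during S phase, had 122, 138 and 141 CPM in siCTR and 121, 130.4 and 146 CPM in siLSD1, with a log2 fold change of -0.01 (interval -0.26 to 0.24). The difference of these changes from those of CCNE1 and CCNE2 was not tested.

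CCNB1 and CDK1 were among the members with the highest level per length, and CCNB2 was at 48.6 ± 5.10 FPKM in siCTR. CCNB1 (cyclin B1) had 162 ± 19.2 FPKM (mean ± SD) in siCTR and 148 ± 5.14 in siLSD1, and its catalytic partner CDK1 had 149 ± 23.7 and 139 ± 16.0. By library, CCNB1 had 322, 405 and 329 CPM in siCTR and 307, 333 and 326 CPM in siLSD1, and CDK1 had 249, 353 and 309 CPM in siCTR and 249.6, 284 and 319 CPM in siLSD1. In both genes siCTR replicate 2 was the highest library and the groups overlapped. Log2 fold changes were -0.13 for CCNB1, 0.07 for CCNB2, -0.07 for CCNF and -0.10 for CDK1, none of them past the unadjusted threshold. Cyclin B2, encoded by CCNB2, also pairs with CDK1, and cyclin F, encoded by CCNF, is the substrate-binding part of a ubiquitin ligase and not a kinase activator.

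**Figure D2:**
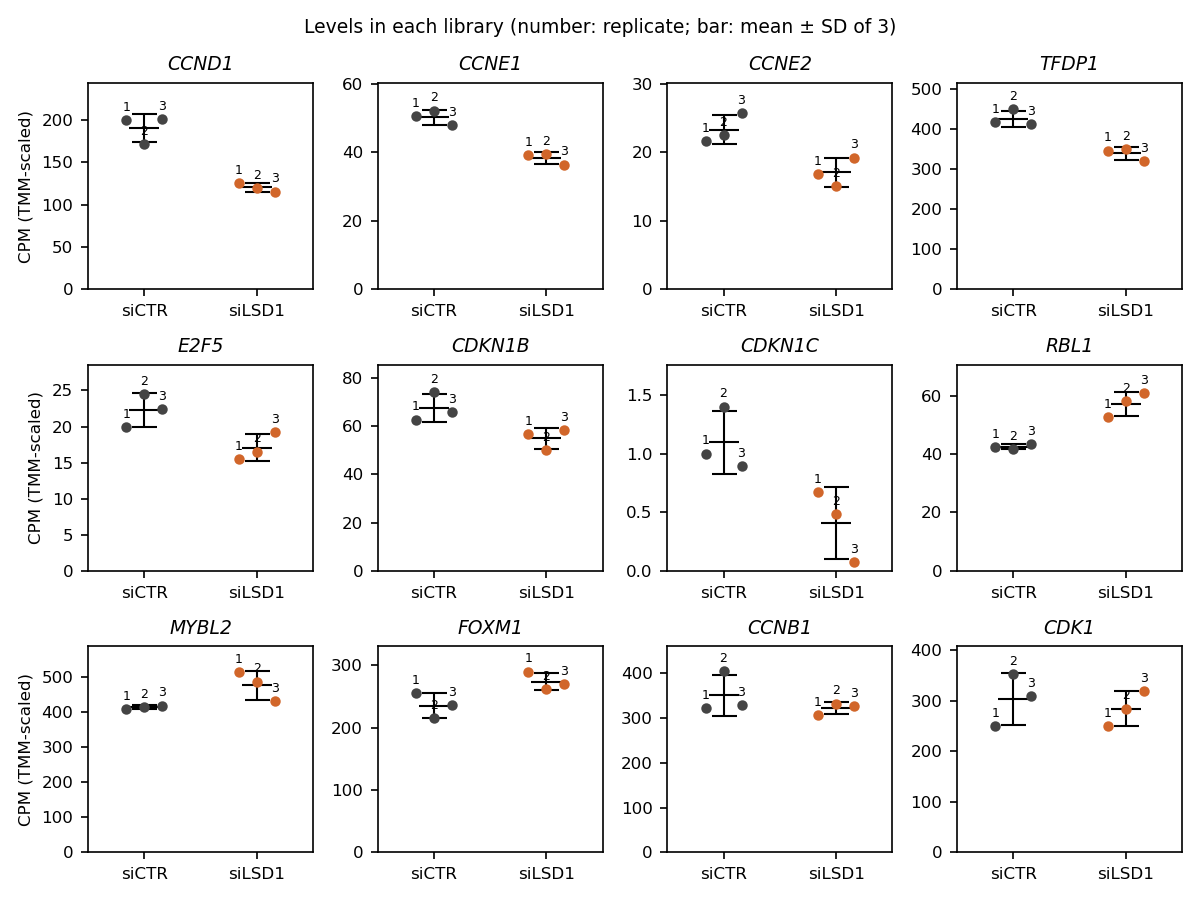
Level of 12 members in each library, in CPM scaled with TMM (vertical axes start at 0), with the replicate number at each point and the mean and SD of 3 libraries as a bar. The first 8 panels are the members with an unadjusted p under 0.05, in which the siCTR and siLSD1 libraries do not overlap, while in CCNB1 and CDK1 they do.

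Both lower inhibitors belong to the Cip/Kip family. CDKN1B (p27, chr12:12685498-12722369) had 62.7, 74.2 and 65.7 CPM in siCTR and 56.6, 50.2 and 58.3 CPM in siLSD1, a log2 fold change of -0.30 (SE 0.12, edgeR adjusted p = 0.285). CDKN1C (p57, chr11:2883213-2885775) was close to the limit of detection, with 13, 18 and 12 reads in siCTR against 9, 6 and 1 in siLSD1. Its log2 fold change was -1.41 (SE 0.56, edgeR adjusted p = 0.260), and -0.91 without siLSD1 replicate 3, where it did not pass the unadjusted threshold either. The interval of the fold change ran from -2.63 to -0.23.

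None of the 4 INK4 genes, whose products bind CDK4 and CDK6, passed the unadjusted threshold. CDKN2A, whose transcripts encode p16 or ARF from different first exons and which is counted here as 1 gene, had 2016, 2883 and 2118 reads in siCTR against 2583, 2310 and 1841 in siLSD1. siLSD1 replicate 3 lay below all siCTR libraries and the other siLSD1 libraries within their range, and the log2 fold change was -0.06 (interval -0.42 to 0.29). CDKN2A was at 0.13 without siCTR replicate 2 and at -0.16 without siCTR replicate 1. At 56.6 ± 11.7 FPKM in siCTR it was the inhibitor gene with the highest level per length. CDKN2B (p15) had 34.1, 35.3 and 31.5 CPM in siCTR and 38.2, 38.2 and 36.8 CPM in siLSD1, without overlap, at a log2 fold change of 0.16 (interval -0.09 to 0.42). CDKN2C (p18) had 60.5, 74.5 and 60.5 CPM in siCTR and 57.8, 59.9 and 53.2 CPM in siLSD1, also without overlap, at -0.19 (interval -0.46 to 0.07), and at -0.09 without siCTR replicate 2. CDKN2D (p19) and CDKN3, a phosphatase that acts on CDK2, had log2 fold changes of -0.05 and -0.08.

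RBL1 encodes p107, a pocket protein that binds E2F4 and E2F5 and whose own promoter is a known E2F target. RBL1 (chr20:36996349-37095997) had 42.4, 41.7 and 43.4 CPM in siCTR and 52.6, 58.1 and 60.7 CPM in siLSD1, which is 134% of the control level. All 3 siLSD1 libraries were above all 3 siCTR libraries, and the spread within siCTR was small (42.5 ± 0.812 CPM, SD). The log2 fold change was 0.43 (SE 0.12, edgeR adjusted p = 0.102), so RBL1 passed the unadjusted and not the adjusted threshold. RB1 itself had 86.2, 82.6 and 96.9 CPM in siCTR and 70.9, 83.5 and 102 CPM in siLSD1, at a log2 fold change of -0.05 (interval -0.35 to 0.25). RB1 was at 0.07 without siLSD1 replicate 1 and at -0.20 without siLSD1 replicate 3. RBL2, the gene of p130, had 75.5, 59.7 and 72.1 CPM in siCTR and 68.0, 79.2 and 90.7 CPM in siLSD1, at 0.20 (interval -0.10 to 0.50), and at 0.09 and 0.11 without siLSD1 replicate 3 and without siCTR replicate 2. Both overlapped between the groups. Per length, RB1 was the highest of the 3 pocket protein genes (17.7 ± 1.56 FPKM in siCTR), followed by RBL2 (14.1 ± 1.85) and RBL1 (7.31 ± 0.200), and after knockdown RBL1 stood at 9.83 ± 0.636 FPKM.

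Of the 7 E2F genes tested, E2F5 was lower at the unadjusted threshold. E2F5 (chr8:85177154-85217158), which encodes an E2F bound mainly by pocket proteins in resting cells, had 19.9, 24.5 and 22.4 CPM in siCTR and 15.5, 16.5 and 19.2 CPM in siLSD1. The highest siLSD1 library lay just below the lowest siCTR library, and the log2 fold change was -0.38 (SE 0.14, edgeR adjusted p = 0.247). E2F1, the best known activator, had 99.1, 104 and 102 CPM in siCTR and 121, 117 and 100.2 CPM in siLSD1, at 0.15 (interval -0.09 to 0.39). E2F8, a repressor of the late cycle, had 28.5, 18.3 and 28.3 CPM in siCTR and 29.9, 29.3 and 32.2 CPM in siLSD1. The groups did not overlap in E2F8, siCTR replicate 2 was far below the other siCTR libraries, and the log2 fold change of 0.28 did not pass the threshold (interval -0.08 to 0.64) and was 0.10 without that library. E2F3, E2F4, E2F6 and E2F7 lay between -0.08 and 0.01 on that scale.

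TFDP1 encodes DP1, the partner with which E2F proteins bind DNA, and was at 160.5 ± 5.86 FPKM in siCTR against 5.43 ± 0.209 for TFDP2, the gene of the other DP partner. TFDP1 (chr13:113584721-113641473) had 417, 448 and 412 CPM in siCTR and 346, 350.4 and 320.2 CPM in siLSD1, 79.6% of the control level and without overlap. The log2 fold change was -0.33 (SE 0.10, edgeR adjusted p = 0.170). That of TFDP2 was 0.09 (interval -0.17 to 0.35).

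**Figure D3:**
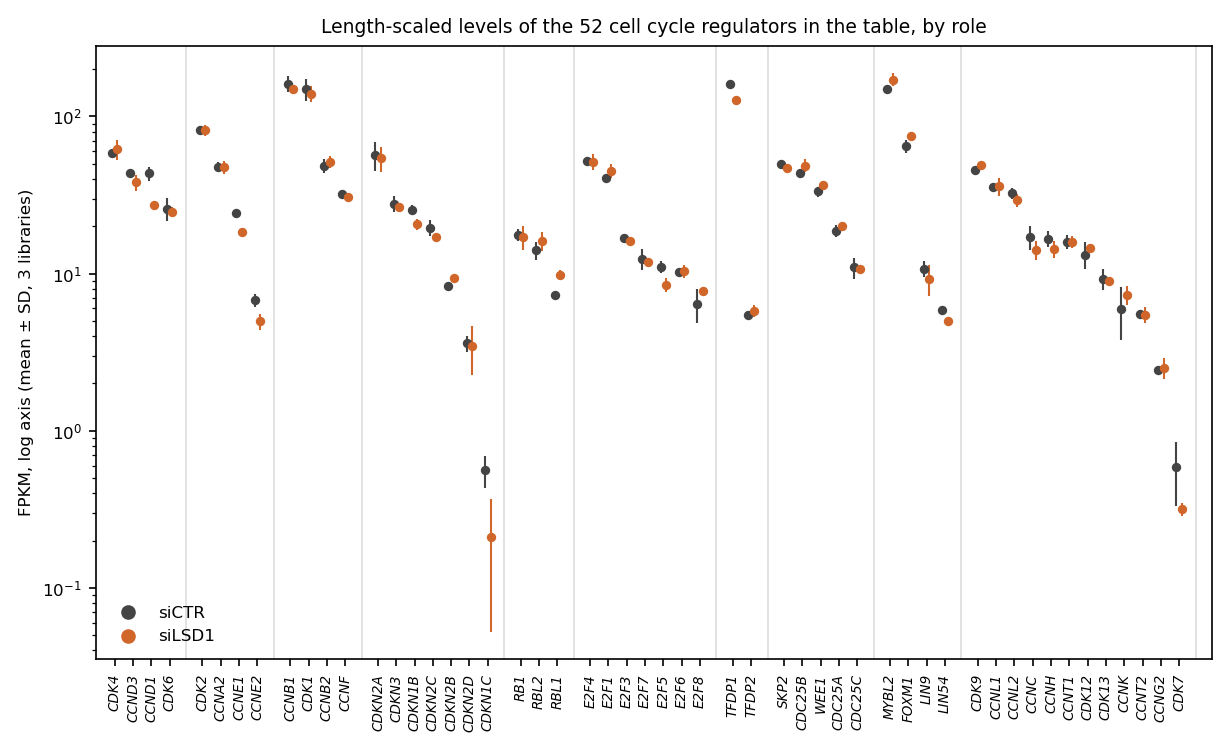
Level per gene length of the 52 members in the table, in FPKM on a log axis, as mean ± SD of 3 siCTR (grey) and 3 siLSD1 (orange) libraries, in blocks by role. Levels span from CDKN1C and CDK7, below 1 FPKM, to CCNB1, CDK1, MYBL2 and TFDP1, above 100 FPKM, and the means of the groups lie close together for most members.

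None of the genes that remove or add the inhibitory phosphate on CDKs passed the unadjusted threshold, nor did SKP2, the ubiquitin ligase subunit that targets p27. CDC25A, a phosphatase that activates CDK2, had 73.6, 64.2 and 75.0 CPM in siCTR and 79.96, 75.5 and 70.6 CPM in siLSD1. WEE1, the kinase that opposes it, had 131, 155 and 141 CPM in siCTR and 148, 154 and 164 CPM in siLSD1, and SKP2 had 181, 208 and 184 CPM in siCTR and 172, 189 and 181 CPM in siLSD1. All 3 overlapped between the groups, at log2 fold changes of 0.09, 0.13 and -0.08. The other CDC25 phosphatases, CDC25B and CDC25C, stood at 0.15 and -0.03.

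The genes of FOXM1 and B-MYB, which drive the mitotic gene program, did not pass the unadjusted threshold. FOXM1 had 255, 215 and 236 CPM in siCTR and 289.8, 262 and 269.9 CPM in siLSD1, at a log2 fold change of 0.22 (interval -0.02 to 0.46, edgeR adjusted p = 0.403). MYBL2, the gene of B-MYB, had 408, 414 and 418 CPM in siCTR and 512, 486 and 431 CPM in siLSD1, at 0.20 (interval -0.03 to 0.44, edgeR adjusted p = 0.421). The groups did not overlap in either gene, as in 11.4% of all genes in that direction. MYBL2 was at 0.27, past the unadjusted threshold, without siLSD1 replicate 3. The MuvB subunit genes LIN9 and LIN54, the second of which encodes the subunit that contacts DNA, had log2 fold changes of -0.21 and -0.23, and the libraries of LIN54 did not overlap. LIN9 was at -0.41, past the unadjusted threshold, without siLSD1 replicate 3, and between -0.12 and -0.10 without siLSD1 replicate 1, siLSD1 replicate 2 or siCTR replicate 3.

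The remaining members are cyclins and kinases that mostly act on RNA polymerase II. None of the 11 tested passed the unadjusted threshold, and their log2 fold changes ran from -0.27 for CCNC, the cyclin of the Mediator kinase, to 0.29 for CCNK, the partner of CDK12 and CDK13. Both values depended on siCTR libraries. CCNK was at 0.06 without siCTR replicate 2 and at 0.57, past the unadjusted threshold, without siCTR replicate 1, and CCNC was at -0.11 and -0.38 without the same libraries, the second past that threshold. Without siLSD1 replicate 3, CCNK was at 0.17 and CCNC at -0.39, the latter past it. CCNH, part of the CDK-activating kinase, was at -0.23, and CDK9, the kinase of the elongation factor P-TEFb, at 0.11 with libraries that did not overlap. CCNH was at -0.33, past the unadjusted threshold, without siLSD1 replicate 3, and at -0.12 and -0.14 without siCTR replicate 2 and without siLSD1 replicate 1. CCNT1 and CCNT2, the cyclins of CDK9, were at -0.01 and -0.02, and the splicing-associated CCNL1 and CCNL2 at 0.02 and -0.14. CCNG2 was at 0.04, CDK12 at 0.14 and CDK13 at -0.06. CDK12 was at -0.01 without siCTR replicate 2. CDK7, the catalytic subunit of the CDK-activating kinase, had 7, 17 and 19 reads in siCTR against 7, 8 and 8 in siLSD1, and was not tested at this depth. At 0.590 ± 0.257 FPKM in siCTR, CDK7 was far below its cyclin CCNH (16.7 ± 2.01 FPKM), and the counting step behind so low a value is not given in the sources used here.

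The libraries of each group differed in how gene levels followed GC content. Spearman's rho between the centred log2 level and GC content over 11759 genes, which share a library and are no independent points, was 0.43, -0.04 and -0.21 in siCTR replicates 1 to 3 and 0.58, 0.03 and -0.61 in siLSD1 replicates 1 to 3. In both groups the value was highest in the library numbered 1 and lowest in that numbered 3. The median GC content was 45.9% in the members and 48.3% in all genes. siLSD1 replicate 3 was the highest or lowest of the 6 libraries in 54.9% of members and in 46.2% of all genes, and siCTR replicate 2 in 52.9% and 51.7%. With the trend on GC content and length taken into the fit, 6 members passed an adjusted p of 0.05 in edgeR, as did 1014 of 11759 genes, against 171 of 11844 genes without it. These were CCND1, CCNE1, CDKN1B and TFDP1, which were lower, and RBL1 and MYBL2, which were higher. Their corrected log2 fold changes were -0.72, -0.37, -0.29, -0.34, 0.39 and 0.26, with edgeR adjusted p-values of 7.37e-05, 0.0120, 0.0459, 0.0133, 0.00845 and 0.0368. At the unadjusted threshold the corrected fit had 11 lower members (21.6%, against 12.1% of all genes) and 5 higher members (9.80%, against 12.7% of all genes).

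**Figure D4:**
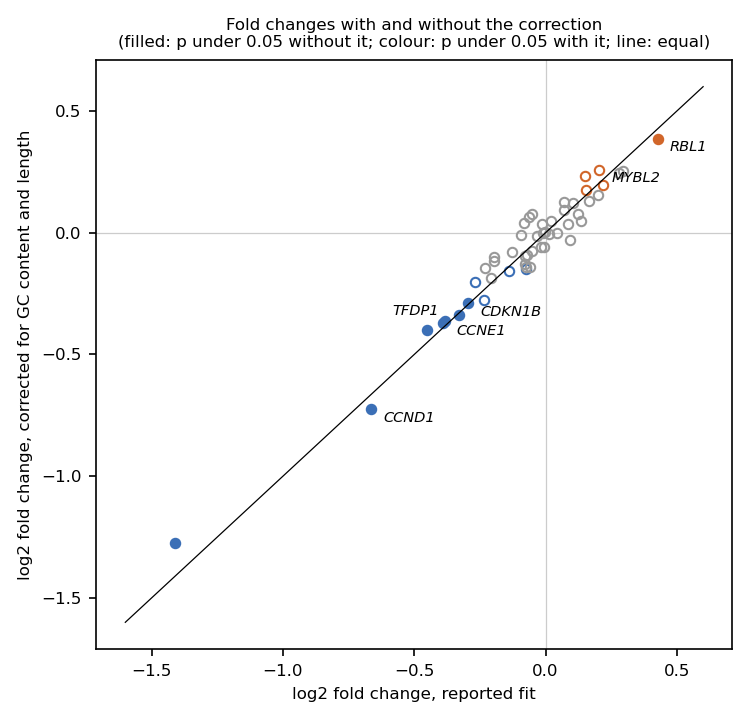
Log2 fold change of the 51 tested members without (horizontal axis) and with (vertical axis) the correction for GC content and length, with a line where both are equal. Filled points had an unadjusted p under 0.05 without the correction, coloured points have it with the correction (blue lower, orange higher), and named genes have an adjusted p under 0.05 with it.

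CCND1, CCNE1, TFDP1 and RBL1 had an unadjusted p under 0.05 in each of the 15 alternative analyses. CDKN1B, CDKN1C, E2F5 and CCNE2 each lost it when certain single libraries were left out. For CDKN1B these were siCTR replicates 2 and 3 and siLSD1 replicate 2, where the log2 fold change was -0.22, -0.32 and -0.23. For E2F5 they were siCTR replicate 2 and siLSD1 replicates 1 and 2, with -0.31, -0.32 and -0.35. For CDKN1C they were siCTR replicate 2 and siLSD1 replicate 3, with -1.20 and -0.91, and for CCNE2 siLSD1 replicate 2, with -0.36.

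**Figure D5:**
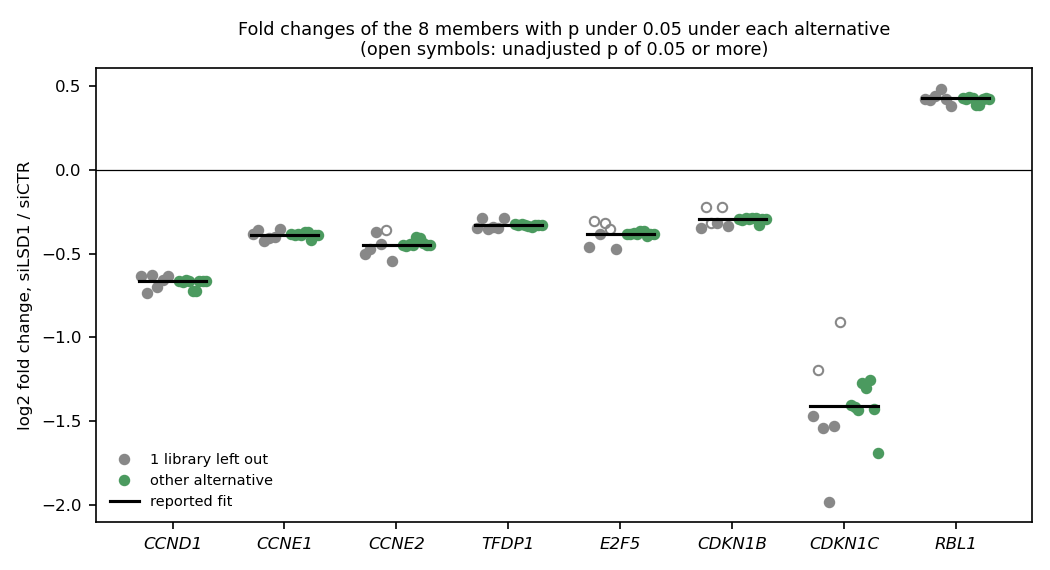
Log2 fold change (siLSD1 over siCTR, vertical axis) of the 8 members with an unadjusted p under 0.05, as reported (line), with each library left out (grey) and under the other alternatives (green). Open symbols have an unadjusted p of 0.05 or more and occur in CCNE2, E2F5, CDKN1B and CDKN1C, and no gene changes its direction.

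Genes that act with the members were read from 5 lists. Of 28 further cyclins, CDKs and their cofactors that were tested, 4 were higher and 4 lower at an unadjusted p under 0.05, with a median log2 fold change of -0.11 against -0.01 over all genes. The background for these lists is the same 7.48% of all genes higher and 6.55% lower. CDK14, a membrane-associated kinase activated by cyclin Y, rose from 209, 163 and 217 reads in siCTR to 397, 344 and 450 reads in siLSD1, a log2 fold change of 1.01 (SE 0.15, edgeR adjusted p = 0.00573). CDK16, a related kinase, was at 0.40, CCNO, a cyclin of multiciliated cells, at -0.69 and CDK2AP1, a CDK2-binding protein, at -0.34, all without overlap and short of the adjusted threshold. Of 34 ubiquitin ligase subunits and kinases of the cycle, 1 was higher and 2 were lower at the unadjusted threshold, namely the phosphatase gene CDC14B (0.38), the ligase subunit gene RBX1 (-0.40) and DYRK1A (-0.26), a kinase that acts on MuvB. Of 9 MuvB and RB partners, none passed it.

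The downstream programs are read from targets of E2F and of FOXM1 and MuvB. Of 34 E2F targets tested, 1 was lower at the unadjusted threshold, and the median log2 fold change was -0.02. The lower one was MCM4, a subunit of the replicative helicase (-0.26). Of 31 FOXM1 and MuvB targets, 1 was higher and 0 were lower, with a median of 0.07. Of these targets 21 were above 0 and 10 below, beside 5598 and 6246 of all genes. The higher one was HMMR, a spindle-associated protein (0.39), whose libraries overlapped between the groups. Over the 132 tested genes of the 5 lists, 7 were higher and 7 lower, and CDK14 was the only one past an adjusted p of 0.05 in edgeR. With the correction for GC content and length, 5 further cyclins and CDKs were higher and 7 lower, 2 ubiquitin ligase subunits and kinases were higher and 4 lower, 1 MuvB or RB partner was higher and 1 lower, 5 E2F targets were higher and 4 lower, and 3 FOXM1 and MuvB targets were higher and 0 lower, beside 12.7% of all genes higher and 12.1% lower.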

How the data were processed

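RNA-seq libraries of U2OS cells with control or LSD1 siRNA (3 each) were grouped by their labels. The authors aligned reads with STAR and deposited whole-read counts per gene, without normalization, for 6 libraries. The authors also deposited FPKM values, which were used here only to describe levels of genes in each group and not in any test. The genome build, annotation and counter are not given in the sources used here. The columns of fold changes and p-values of the authors' DESeq2 comparison were not used. Tables for pairs of libraries hold a second set of deposited counts, used as an alternative.

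Counts were tested in R 4.3.3 with edgeR 4.0.16 (TMM, quasi-likelihood test, no covariates, genes filtered by filterByExpr at a minimum count of 10), which left 11844 of 15585 genes, over which p-values were adjusted (Benjamini-Hochberg). The biological coefficient of variation was 12.6%. The procedure was also run on simulated counts, which had no trend on GC content and no effect of the replicate number. The changes set in them were larger than those of the tested members other than CDKN1C. That run therefore does not show how the procedure handles these trends or smaller changes. An exact permutation test of 3 against 3 libraries cannot give a p below 0.1 and was not used. The members, the gene lists and the rule for named genes were chosen with earlier results of these data known. By that rule, values per library were given for members with an unadjusted p under 0.05 and for the leading genes of each role, and at most 4 genes with the smallest p were named from each of 5 lists. A result for 1 gene of these lists is not reported here. Replicates of a group differed by more than sampling noise (chi-square per degree of freedom 6.45 to 29.2), so each library was counted as 1 sample.

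The 15 alternatives were a block for the replicate number, scaling by library size, no filter on low counts, a filter of at least 1 CPM in 3 libraries, a correction for GC content and length (lowess span 0.3, offsets), both together, each library left out, the second counting, DESeq2 1.42.0 and limma-voom (limma 3.58.1). Coordinates, GC content and length are from GENCODE release 44 (GRCh38), and the last 2 were known for 99.3% of tested genes. Promoters are from RefSeq. Tables and plots were made with pandas 2.3.3, numpy 2.4.6 and matplotlib 3.10.9 (Python 3.11.15).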

Additional observations from a re-analysis of the deposited data

How the results depend on the processing

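Few reads were counted for CDKN1C, CDK7 and CDKN2D (52 to 97 reads, SE 0.25). The confidence interval of the members had a median of 0.26 to each side on the log2 scale. No member past an unadjusted p of 0.05 reversed in the alternatives run, and 21 of the 43 other members changed sign in at least 1 of them without passing it. Of the 43, 13 passed it in at least 1 alternative. With the correction for GC content and length these were CDK6, E2F1, CDC25B, FOXM1, MYBL2, LIN54, CCNC and CCNL2.

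The number of members with an adjusted p under 0.05, which was 1, became 2 with DESeq2 (CCND1 and RBL1) and 6 with the correction for GC content and length. That correction gave 5 higher and 11 lower members at the unadjusted threshold instead of 1 and 7, while the counts over all genes went from 886 and 776 to 1493 and 1423, and a median log2 fold change of -0.0136 instead of -0.05. With 1 library left out, 1 to 2 members were higher and 4 to 9 lower at the unadjusted threshold. In these fits 0 to 1 members had an adjusted p under 0.05, and the median over members ranged from -0.0721 to 0.00952. Over all genes, the count at the unadjusted threshold was lowest without siLSD1 replicate 2 (1061 of 11979) and highest without siCTR replicate 1 (1712 of 11975). Without siCTR replicate 2 it was 1523 of 12007. CCND1 missed the adjusted threshold without siCTR replicate 3 or siLSD1 replicate 2, and 4 members were lower without siCTR replicate 2 or siLSD1 replicate 2. The higher count was 2 without siCTR replicate 1 or siLSD1 replicate 3. The median was above 0 without siCTR replicate 3. The number of genes with an adjusted p under 0.05, 171 as reported, was 1014 with the correction, 290 without a filter and 323 with DESeq2, and 58 to 136 with 1 library left out. The cause of these differences was not tested.

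No label states that libraries with the same replicate number are pairs, and the reported fit has no block. The second set of deposited counts does set each siCTR library beside the siLSD1 library of the same number. Deviations from the group means correlated at 0.33, 0.07 and 0.31 in the libraries with the same number. Between libraries with different numbers the correlation was at most 0.0072. Whether the libraries were prepared as pairs is not given in the sources used here. With a block for the replicate number, 4 members were higher and 8 lower at the unadjusted threshold. These are 12 of 51 members, beside 2546 of 11844 genes. In that fit 4 members were past an adjusted p of 0.05 (CCND1, CCNE1, CCNE2 and RBL1), beside 897 of 11844 genes. E2F8, FOXM1, CCNK and CCNC then also passed the unadjusted threshold, at 0.30, 0.22, 0.33 and -0.26. With the block and the correction for GC content and length together, 6 members were higher and 12 lower, with a median of -0.0115. These are 18 of 51 members, beside 3391 of 11759 genes. In that fit 10 members were past an adjusted p of 0.05, beside 1524 of 11759 genes.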
